A study of Mus musculus with 8 samples.

Results

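The Irf2bp2 gene of the mouse sits in a window of chromosome 8 that is dense in Hi-ChIP loops. The window is chr8:126000001-127000000 of the mm10 (GRCm38) assembly, and it was selected on its number of FOXA1 loops in these same lists. A loop was counted as a member when its midpoint, halfway between its anchors, fell inside the window. The 4 loop lists of the series held 249200 distinct loops, and 916 of them were members. FOXA1 liver mets listed 582 members among 125623 loops, FOXA1 tumour 424 among 104136, HNF4G liver mets 358 among 78098 and HNF4G tumour 373 among 76323. These numbers chose the window, so they are a description and carry no test.

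Hi-ChIP ligates DNA fragments that lie close together in the nucleus and then pulls down those bound by a chosen protein, here FOXA1 or HNF4G. Each antibody was used on a cell line from a primary pancreatic tumour of the KPC mouse (tumour) and on a matched line from a liver metastasis (liver mets), with 2 replicates in each of the 4 groups. Both lines were labelled WT and untreated, and both come from the KPC mouse, a genetic model of pancreatic cancer in which Cre recombinase acts in the pancreas. Each context is thus 1 cell line, and the number of animals behind it is not given in the sources used here. Each group had 1 loop list that joined its replicates, so there was no spread between replicates, no test between lists was possible, and every interval here covers counting error only. Loop lists hold no expression values, so the labelled cell type could not be checked against markers. The reads behind the lists were not analysed here and their depth is unknown.

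IRF2BP2 is a nuclear cofactor that was found as a partner of the interferon regulatory factor IRF2, and it is known to act mainly as a repressor of transcription. It has also been described as a partner of VGLL4 and NFAT1 and as a regulator of Klf2. FOXA1 is a forkhead protein that can open closed chromatin, and HNF4G is a nuclear receptor of the HNF4 family. Factors of both kinds bind enhancers, which can contact the promoter of a gene over long distances through chromatin loops.

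Irf2bp2 (ENSMUSG00000051495.7) is read from the minus strand and has 2 exons at chr8:126588296-126593986, so higher coordinates lie on its 5′ side. Its start lay in a single anchor at chr8:126589321-126597749, 8429 bp wide, called the promoter anchor from here on. Other anchors are named by the distance of their midpoint from it in kb, with a plus sign on the 5′ side. The 250 bases before the start, chr8:126593987-126594236 on the minus strand (RefSeq, GRCm38.p6), are shown first because all of the gene's promoter loops end on this anchor. The next sequences are stretches of 200 bases from the plus strand of the same assembly, from the 4 partner anchors that were listed in all 4 lists with the top value in FOXA1 liver mets and the highest sums of values over the lists. Capitals mark the forkhead words TGTTTAC and TGTTTGC, or their reverse complements GTAAACA and GCAAACA, and each stretch was chosen to hold such a word, since the lists give no point of binding inside an anchor. The stretches lie at chr8:126664915-126665114 and chr8:126733703-126733902, outside any annotated gene, at chr8:126824743-126824942 in an intron of the lincRNA Gm31718, and at chr8:126847884-126848083 in introns of the lincRNAs A630001O12Rik and Gm31718.
Irf2bp2 promoter: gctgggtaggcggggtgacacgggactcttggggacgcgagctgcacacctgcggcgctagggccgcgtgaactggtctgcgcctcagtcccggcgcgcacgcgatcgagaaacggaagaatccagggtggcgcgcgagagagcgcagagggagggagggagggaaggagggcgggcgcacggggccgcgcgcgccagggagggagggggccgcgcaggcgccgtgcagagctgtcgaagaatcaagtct
+70.4 kb anchor: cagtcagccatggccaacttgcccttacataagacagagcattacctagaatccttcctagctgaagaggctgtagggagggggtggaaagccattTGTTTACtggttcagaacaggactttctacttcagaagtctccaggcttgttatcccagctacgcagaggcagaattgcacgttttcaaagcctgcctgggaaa
+142 kb anchor: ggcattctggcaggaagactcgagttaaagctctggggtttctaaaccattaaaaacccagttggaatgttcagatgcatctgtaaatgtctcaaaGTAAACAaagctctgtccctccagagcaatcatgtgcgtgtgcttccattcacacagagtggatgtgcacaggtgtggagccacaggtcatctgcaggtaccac
+234 kb anchor: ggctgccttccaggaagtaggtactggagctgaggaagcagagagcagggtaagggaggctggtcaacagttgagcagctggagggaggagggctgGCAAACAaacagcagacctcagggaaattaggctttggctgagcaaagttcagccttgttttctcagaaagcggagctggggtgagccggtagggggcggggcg
+257 kb anchor: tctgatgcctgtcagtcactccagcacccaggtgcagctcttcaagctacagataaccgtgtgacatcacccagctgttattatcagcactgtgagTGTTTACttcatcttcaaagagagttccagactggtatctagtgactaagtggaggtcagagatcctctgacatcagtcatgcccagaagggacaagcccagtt

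The printed Irf2bp2 promoter stretch had 71.6% G and C and 32 CpG dinucleotides, against medians of 52.4% and 6 over 32851 RefSeq promoters of the same length. It held neither forkhead word, and neither of the HNF4 words CAAAGTCC and CAAAGGTC, on either strand. Such words were found in 7.29% (forkhead) and 2.19% (HNF4) of all those promoters. The promoter anchor as a whole held 4 forkhead matches. The +257 kb, +70.4 kb, +234 kb and +142 kb anchors held 4, 3, 1 and 1. A match is a description of the sequence and not a bound site.

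The window was rich in loops for both antibodies. Its count ranked 10 of 1860 windows of 1 Mb with any loop in FOXA1 liver mets, 18 of 1836 in FOXA1 tumour, 14 of 1772 in HNF4G liver mets and 17 of 1740 in HNF4G tumour. The medians over those windows were 27.0, 22.5, 18.0 and 16.5 loops. The region was narrow, since the adjacent windows held 64 loops on the lower side and 44 on the upper side in FOXA1 liver mets, against 582 inside. At the lower edge the nearest FOXA1 liver mets loop inside had a midpoint 16.9 kb from the edge and a value of 0.877, and the nearest outside was 17.7 kb away with a value of 1.87. At the upper edge these distances were 8.05 and 12.4 kb, with values of 1.68 and 1.60. The value is the number that each loop carries in the lists, read here as the −log10 of an adjusted p, with a ceiling of 20.

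FOXA1 liver mets listed more loops in the window than any of the other lists. The counts, with exact Poisson 95% intervals, were 582 (536 to 631) in FOXA1 liver mets, 424 (385 to 466) in FOXA1 tumour, 358 (322 to 397) in HNF4G liver mets and 373 (336 to 413) in HNF4G tumour. The ratio of FOXA1 liver mets to FOXA1 tumour was 1.37 (exact 95% interval 1.21 to 1.56), to HNF4G liver mets 1.63 (1.42 to 1.86) and to HNF4G tumour 1.56 (1.37 to 1.78). These comparisons share the FOXA1 liver mets list. That list is also the longest, at 1.21, 1.61 and 1.65 times the length of the others. As a share of its list, the window held 0.463% of FOXA1 liver mets loops, 0.407% of FOXA1 tumour, 0.458% of HNF4G liver mets and 0.489% of HNF4G tumour. The ratios of these shares were 1.14 (1.00 to 1.29), 1.01 (0.884 to 1.16) and 0.948 (0.831 to 1.08). In shares of the list, the window was therefore not richer in FOXA1 liver mets than in the HNF4G lists. Over all windows with 20 or more loops in both lists, FOXA1 liver mets had at least 25% more loops than FOXA1 tumour in 38.0% of 970 windows, than HNF4G liver mets in 89.6% of 859 and than HNF4G tumour in 90.1% of 801.

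**Figure D1:**
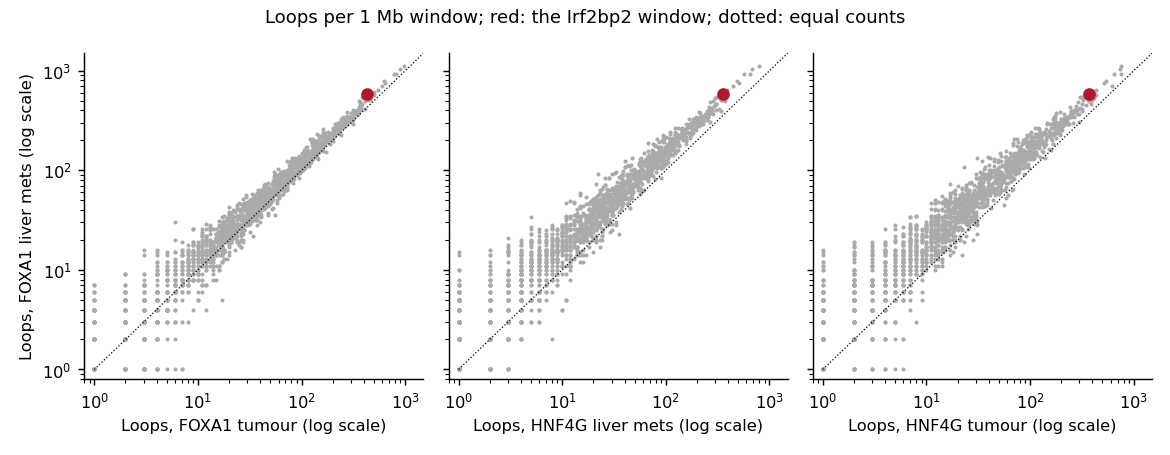
Loops per 1 Mb window in FOXA1 liver mets (vertical axis) against each of the other lists (horizontal axes), both on log scales, 1 grey point per window with loops in both lists. The Irf2bp2 window (red) lies at 582 loops in FOXA1 liver mets and 424, 358 and 373 in the others, and other windows lie close to it in each panel.

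The loops of high value set the window apart more than the number of loops did. At the top value of 20, FOXA1 liver mets listed 23 loops in the window, FOXA1 tumour 6, HNF4G liver mets 2 and HNF4G tumour 7. No other window of the FOXA1 liver mets list held as many as these 23, which were 7.01% of its 328 loops at the top value (4.72 to 10.3, Wilson 95% interval). The shares in the other lists were 5.26% of 114, 2.63% of 76 and 6.31% of 111, with ranks of 2, 9 and 2 among windows. With a value of 4 or more there were 77, 39, 21 and 38 loops, which ranked 1, 1, 6 and 2. Loops of 4 or more made up 13.2% of the window's loops in FOXA1 liver mets and 2.58% of the whole list. In FOXA1 tumour these shares were 9.20% and 1.75%, in HNF4G liver mets 5.87% and 1.78%, and in HNF4G tumour 10.2% and 1.84%. The enrichment in high values was thus present in all 4 lists, and the share was lowest in HNF4G liver mets. For loops of 4 or more the ratio of FOXA1 liver mets to FOXA1 tumour was 1.97 (1.33 to 2.98) in numbers and 1.11 (0.747 to 1.68) in shares of all such loops of the list. Against HNF4G liver mets it was 3.67 (2.24 to 6.26) in numbers and 1.57 (0.959 to 2.68) in shares, and against HNF4G tumour 2.03 (1.36 to 3.07) and 0.879 (0.589 to 1.33).

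**Figure D2:**
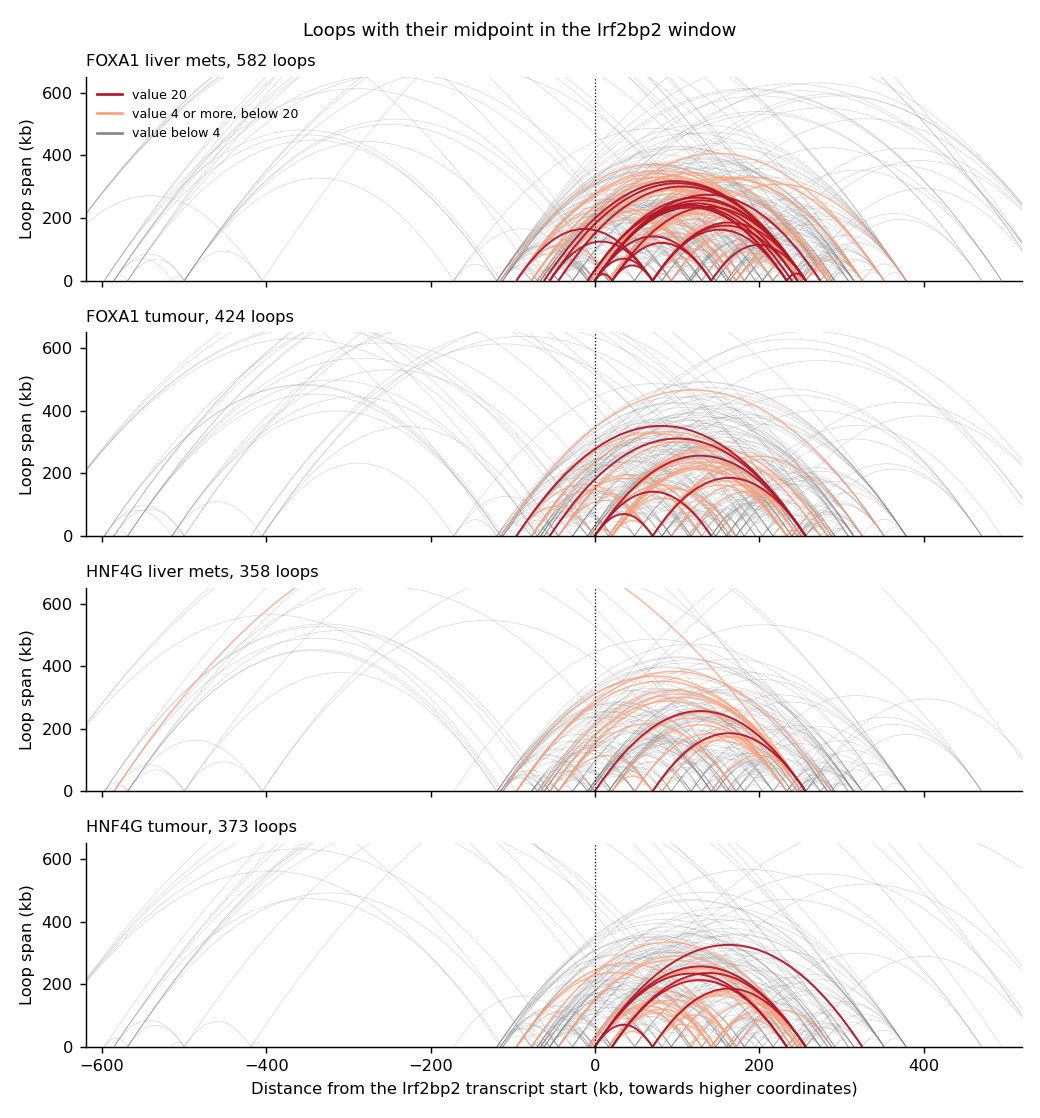
Each loop of the window drawn as an arc between its anchors, by distance from the Irf2bp2 transcript start (horizontal axis, kb) and with the peak of the arc at the span of the loop (vertical axis, kb), 1 panel per list. Arcs taller than the panel run off it. The 23, 6, 2 and 7 loops at the value of 20 (dark red) join anchors between -95.3 and +326 kb.

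The loops were not spread evenly over the window. In bins of 100 kb by loop midpoint, the 4 bins centred from 44.0 kb on the 3′ side to 256 kb on the 5′ side of the Irf2bp2 start held 523 of the 582 loops in FOXA1 liver mets (89.9%). They held 87.5% in FOXA1 tumour, 88.8% in HNF4G liver mets and 88.5% in HNF4G tumour. The bins centred at 56.0 and 156 kb held 66 of the 77 FOXA1 liver mets loops of value 4 or more, 32 of 39 in FOXA1 tumour, 20 of 21 in HNF4G liver mets and 34 of 38 in HNF4G tumour. The position of the dense block was thus the same in the 4 lists. The lists share anchors of identical coordinates, and most anchors of the window lie in this block, so this likeness is not independent of the anchors.

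The window had 53 anchors with their midpoint inside, against a median of 12.0 per window, a rank of 31 among 1988 windows with anchors. The median number of loops per anchor was 21 in FOXA1 liver mets, 15 in FOXA1 tumour, 13 in HNF4G liver mets and 13 in HNF4G tumour, against 7, 6, 4 and 4 over all anchors of each list. FOXA1 liver mets had more loops than FOXA1 tumour at 44 of the 53 anchors, fewer at 7 and as many at 2. It had more loops than HNF4G liver mets at 49 and more than HNF4G tumour at 48. Over all 30542 anchors of the series these shares were 58.5%, 75.0% and 76.7%, and the window was selected on its FOXA1 loops, so nothing further is read from the counts.

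The 5 anchors with the most loops in FOXA1 liver mets formed a row from the Irf2bp2 promoter to the lincRNA A630001O12Rik. The +70.4 kb anchor (chr8:126659411-126668466, no annotated gene) had 48 loops in FOXA1 liver mets, 35 in FOXA1 tumour, 35 in HNF4G liver mets and 33 in HNF4G tumour. The +257 kb anchor (chr8:126846334-126854152, over an exon of A630001O12Rik and an intron of Gm31718) had 47, 41, 37 and 36, the highest number of the window in each of the other 3 lists. For the Irf2bp2 promoter anchor the numbers were 45, 39, 28 and 35. Next came the +234 kb anchor (chr8:126823641-126830882, over an exon of Gm31718) with 44, 28, 28 and 30, and the +142 kb anchor (chr8:126732313-126738466, no annotated gene) with 41, 25, 24 and 27. These were also the 5 widest anchors of the window, 6154 to 9056 bp against a median of 2642 bp. Across the 53 anchors, width and the number of FOXA1 liver mets loops had a Spearman rho of 0.427 and a Pearson r of 0.696, as a description of anchors that share loops. Per kb of anchor the 5 had 5.30 to 6.66 loops, against a median of 6.52 over the window, and 4 of the 5 lay below that median.

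**Figure D3:**
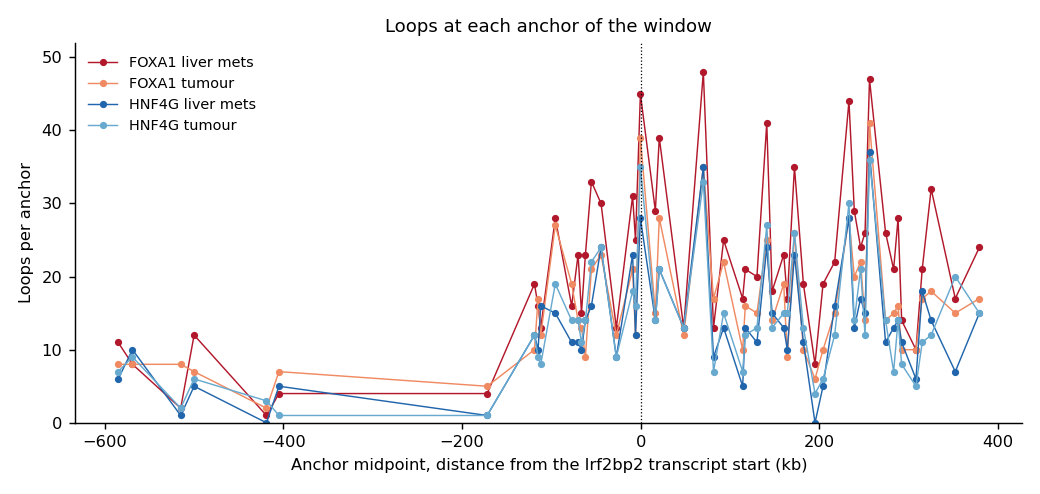
Loops at each of the 53 anchors of the window (vertical axis) by distance of the anchor from the Irf2bp2 transcript start (horizontal axis, kb), 1 line per list. The 5 tallest peaks of FOXA1 liver mets have 48, 47, 45, 44 and 41 loops, the +257 kb, promoter and +70.4 kb anchors are the 3 tallest of each list (with +234 kb level with the promoter in HNF4G liver mets), and the anchors beyond 150 kb on the 3′ side had 12 loops or fewer in each list.

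The anchors with many loops were also joined to each other, which their choice by number of loops favours. The 8 anchors with the most window loops in FOXA1 liver mets were taken, a choice that favours that list. They can form 28 pairs, of which 28 were listed in FOXA1 liver mets, 26 in FOXA1 tumour, 25 in HNF4G liver mets and 27 in HNF4G tumour. The median value of the listed pairs was 16.1 in FOXA1 liver mets, 4.73 in FOXA1 tumour, 3.24 in HNF4G liver mets and 6.28 in HNF4G tumour. At the ceiling of 20 were 14, 5, 2 and 6 pairs. All 4 lists held 23 of the 28 pairs. The eighth place was a tie at 32 window loops between the -54.8 kb anchor, taken here, and the +326 kb anchor. With the +326 kb anchor in its place, an alternative added after seeing the data, 28, 25, 22 and 23 of the 28 pairs were listed. The median values of the listed pairs were 8.08, 4.28, 3.30 and 7.75, so the median of FOXA1 liver mets was close to that of HNF4G tumour. These medians leave out the pairs that were not listed, and 12, 4, 2 and 7 pairs were at 20. With the 7 anchors above the tie the medians were 20, 6.31, 3.51 and 7.75. The value can rise with the number of read pairs in a library, and the part of depth in the differences between lists was not tested.

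A pair of loops reached the top value in every list. They joined the +257 kb anchor to the Irf2bp2 promoter, 257 kb apart, and to the +70.4 kb anchor, 186 kb apart, and they were the only loops of the window at 20 in HNF4G liver mets. Of the 23 top-value loops of FOXA1 liver mets, 21 were listed in FOXA1 tumour, 21 in HNF4G liver mets and 23 in HNF4G tumour, 5, 2 and 5 of them at 20. The loop of 23.0 kb between the +234 and +257 kb anchors, both over lincRNA exons, had values of 20 in FOXA1 liver mets, 4.28 in FOXA1 tumour, 1.44 in HNF4G liver mets and 7.02 in HNF4G tumour. The loop from +142 kb to +257 kb had 20, 1.91, 5.99 and 9.74. In the other direction, the loop of 352 kb from the -95.3 kb anchor to the +257 kb anchor was at 20 in FOXA1 tumour and at 10.4, 5.97 and 1.92 in FOXA1 liver mets, HNF4G liver mets and HNF4G tumour.

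The Irf2bp2 promoter was next examined alone. Its anchor had 45 loops in FOXA1 liver mets, 39 in FOXA1 tumour, 28 in HNF4G liver mets and 35 in HNF4G tumour, with 53 distinct partners. Among 10786 protein-coding genes with a promoter loop, Irf2bp2 ranked 270, 236, 335 and 224 in the 4 lists by number of loops, and 9, 7, 76 and 5 by number of loops of value 4 or more. Genes with several promoter anchors sum the loops of all of them, while Irf2bp2 has 1. As a single anchor it ranked 71 of 29572, 56 of 29091, 101 of 27730 and 63 of 27239 anchors by number of loops. The gene thus stood high by number and by value, and lower by value in HNF4G liver mets, with 3 loops of 4 or more against 14, 11 and 11. The ratio of FOXA1 liver mets to FOXA1 tumour was 1.15 (0.735 to 1.82), to HNF4G liver mets 1.61 (0.981 to 2.68) and to HNF4G tumour 1.29 (0.808 to 2.06). These 3 intervals include 1. In shares of the list the ratios were 0.956, 0.999 and 0.781.

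The partners lay mostly on the 5′ side of the gene. The other anchors of the window also lay more on that side, so the numbers per side are a description. In FOXA1 liver mets 30 of the 45 partners were 5′ and 15 were 3′, in FOXA1 tumour 27 and 12, in HNF4G liver mets 19 and 9, and in HNF4G tumour 27 and 8. All promoter loops at the value of 20 went to the 5′ side, 8 in FOXA1 liver mets, 3 in FOXA1 tumour, 1 in HNF4G liver mets and 4 in HNF4G tumour. On the 3′ side the highest values were 5.69, 6.56, 2.95 and 10.9. The stretch between 200 and 300 kb on the 5′ side, most of whose partners lie over the lincRNAs Gm31718 and A630001O12Rik, held 9, 11, 5 and 9 partners with a median value of 20 in FOXA1 liver mets, 3.24 in FOXA1 tumour, 7.86 in HNF4G liver mets and 3.46 in HNF4G tumour. This stretch had more partners in FOXA1 tumour and higher values in FOXA1 liver mets.

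**Figure D4:**
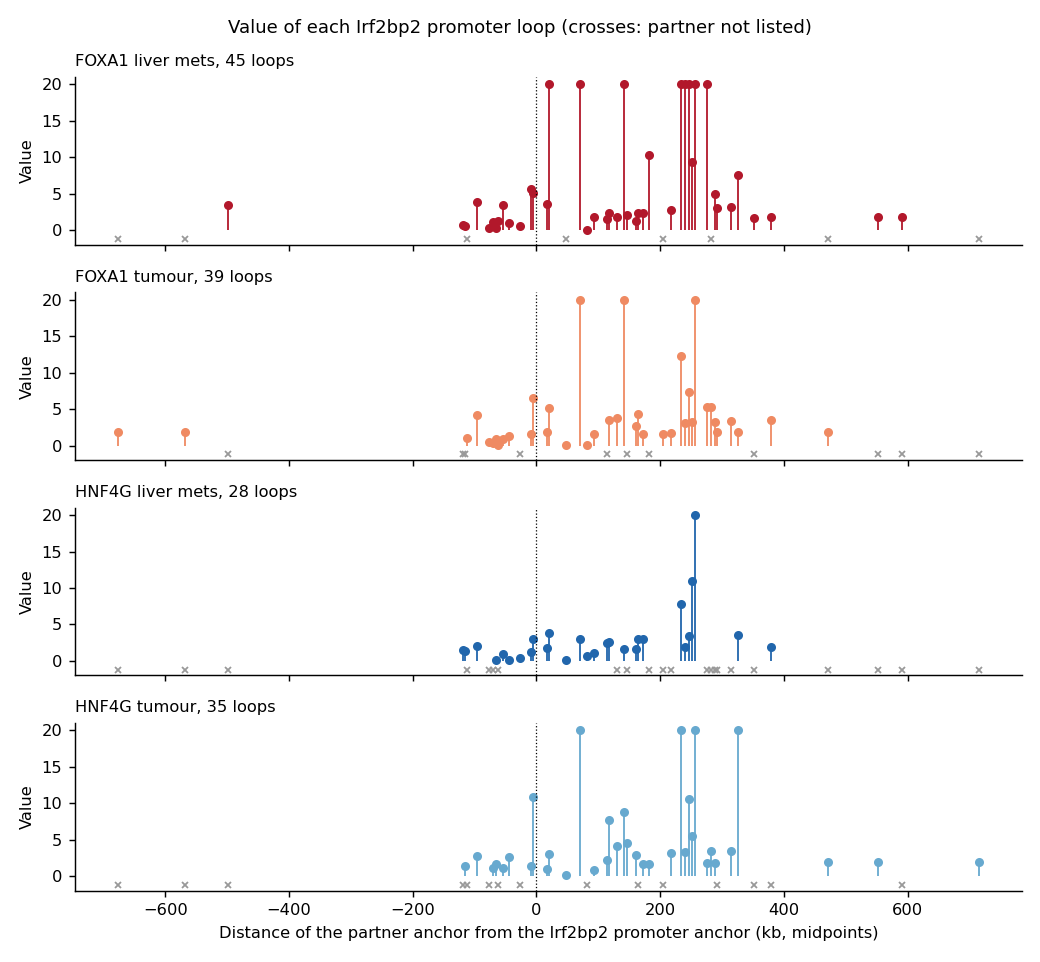
Value of each Irf2bp2 promoter loop (vertical axis, ceiling 20) by distance of its partner anchor (horizontal axis, kb, 5′ side to the right), 1 panel per list. Crosses mark partners that the list did not hold, and the 3 partners over 750 kb away are not drawn. The 8, 3, 1 and 4 loops at 20 all lie to the right of the promoter.

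Of the 53 partners, 20 were listed in all 4 lists, 12 in 3 lists, 10 in 2 lists and 11 in 1 list. Partners in all 4 lists were on the 5′ side in 14 of the 20 cases, near the 35 of all 53 partners. Of the 32 partners in 3 or 4 lists, 5 held a transcript start. Rbm34, which codes for an RNA-binding protein, was the only protein-coding gene among these 5, at +379 kb with values of 1.75 in FOXA1 liver mets, 3.49 in FOXA1 tumour and 1.94 in HNF4G liver mets. The lincRNA A630001O12Rik at +247 kb had 20 in FOXA1 liver mets, 7.39 in FOXA1 tumour, 3.37 in HNF4G liver mets and 10.6 in HNF4G tumour.

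Most of the highest values were at anchors without a start. The +257 kb anchor was at 20 in each list. The +70.4 kb anchor had 20 in FOXA1 liver mets, 20 in FOXA1 tumour, 3.06 in HNF4G liver mets and 20 in HNF4G tumour. For the +142 kb anchor the values were 20, 20, 1.59 and 8.82. Both of these, at +70.4 and +142 kb, were lowest in HNF4G liver mets. The +234 kb anchor had 20, 12.3, 7.86 and 20, the +240 kb anchor in an intron of Gm31718 had 20, 3.13, 1.84 and 3.28, and the +21.1 kb anchor had 20, 5.18, 3.85 and 3.08. The +240 kb and +21.1 kb anchors reached the ceiling in FOXA1 liver mets only. The +275 kb anchor did so too, with 20, 5.24 and 1.87 in FOXA1 liver mets, FOXA1 tumour and HNF4G tumour, and it was not listed in HNF4G liver mets. The +251 kb anchor had 9.40, 3.19, 10.9 and 5.49 and was thus among the 3 highest partners of HNF4G liver mets, beside +257 kb and +234 kb.

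HNF4G tumour had a promoter loop at 20 that the others did not. Its partner at +326 kb (chr8:126918088-126920135, no annotated gene) had 7.56 in FOXA1 liver mets, 1.81 in FOXA1 tumour, 3.57 in HNF4G liver mets and 20 in HNF4G tumour. The anchor over the 3′ end of Irf2bp2 itself (-5.47 kb, an exon of the gene) was also highest there, with 5.14, 6.56, 2.95 and 10.9. The neighbouring -8.72 kb anchor, in an intron of the antisense gene Gm26759, had 5.69, 1.53, 1.19 and 1.42. Among the other partners of all 4 lists, the -95.3 kb anchor had 3.87, 4.15, 1.99 and 2.84, the -54.8 kb anchor 3.45, 0.890, 0.913 and 1.11, and the +117 kb anchor 2.32, 3.44, 2.55 and 7.71. The 6 others of the 20, at -66.0, -44.1, +16.8, +93.2, +161 and +172 kb, stayed at 3.53 or lower in each list.

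The 12 partners in 3 lists had lower values. Apart from the +275 kb anchor, the highest values among them were 4.94 in FOXA1 liver mets at +288 kb, in an intron of Gm31718, 4.36 in FOXA1 tumour at +165 kb, the start of the lincRNA Gm45805, and 4.18 in HNF4G tumour at +130 kb. In FOXA1 tumour the values at +288 and +130 kb were 3.24 and 3.77. The +48.4 kb partner was listed in all but FOXA1 liver mets, with values of 0.123 in FOXA1 tumour, 0.146 in HNF4G liver mets and 0.171 in HNF4G tumour, the lower tied value of each list. Outside this group, the +182 kb partner had 10.3 in FOXA1 liver mets and 1.74 in HNF4G tumour, and it was listed in neither FOXA1 tumour nor HNF4G liver mets.

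FOXA1 liver mets alone held 11.3% of the 53 promoter loops, 19.7% of the 916 window loops and 24.4% of the 248284 outside. The 6 promoter partners that no other list held had low values. They were the starts of Exoc8 and Sprtn (1.87), which share an anchor, of Tsnax (1.87) and of Tomm20 (1.68), an exon of Nrp1 (1.87), an intron of Pard3 at +591 kb (1.86) and an anchor at -499 kb with no annotated gene (3.47). Exoc8 codes for a subunit of the exocyst, Sprtn for a protease that acts in DNA repair, Tomm20 for a receptor of mitochondrial protein import and Nrp1 for the receptor neuropilin. The value of 1.87 is the higher of the tied values that many loops of the FOXA1 liver mets list carry. The loops to Exoc8, Tsnax and Nrp1 spanned more than 1000 kb, and no other list had an Irf2bp2 promoter loop of that span. They were 3 of the 45 promoter loops of FOXA1 liver mets, and 9.62% of that list outside the window spanned 1000 to 2000 kb. FOXA1 liver mets had 5 promoter loops over 500 kb, FOXA1 tumour 2, HNF4G tumour 2 and HNF4G liver mets 0.

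Loop spans were compared next. The median span of the window's loops in FOXA1 liver mets was 140 kb (binomial 95% interval 125 to 163) and in FOXA1 tumour 138 kb (115 to 165). For HNF4G it was 121 kb (98.3 to 144) in liver mets and 126 kb (109 to 151) in tumour. These intervals overlap. Outside the window the medians were 164, 141, 114 and 131 kb, so the interval of the window's median lay below the median of the rest in FOXA1 liver mets and included it in the other lists. Spans of 100 kb or more made up 61.7%, 59.0%, 55.0% and 57.1% of the window's loops. The median spans of the Irf2bp2 promoter loops were 161, 161, 114 and 147 kb in the same order of lists.

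A dense row of anchors offers many pairs, so the number of listed pairs was set against the number expected. The expectation took all 2441 pairs of anchors with a midpoint in the window and a span of up to 2000 kb, and gave each the share of such pairs listed elsewhere in the same range of spans. The ratio of listed to expected pairs was 1.53 (1.40 to 1.65) in FOXA1 liver mets, 1.31 (1.19 to 1.44) in FOXA1 tumour, 1.44 (1.29 to 1.60) in HNF4G liver mets and 1.56 (1.41 to 1.73) in HNF4G tumour. Among windows with 20 or more expected loops this ranked 58 of 1111, 121 of 1022, 55 of 893 and 31 of 879. Much of the number of loops thus went with the number of anchors, with a remaining excess in each list that was not larger in FOXA1 liver mets than in HNF4G tumour. Only anchors with a listed loop were known, so the number of anchors is not independent of the number of loops. The window was also selected on its number of FOXA1 loops, which favours ratios above 1, so the excess is a description.

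The excess depended on span. Below 20 kb the ratio was 0.966 in FOXA1 liver mets, 0.992 in FOXA1 tumour, 1.00 in HNF4G liver mets and 1.16 in HNF4G tumour. Between 200 and 500 kb it was 2.31 (1.99 to 2.67), 2.20 (1.85 to 2.59), 2.34 (1.90 to 2.85) and 2.28 (1.86 to 2.77), so 29.6%, 22.4%, 15.8% and 16.2% of the 625 pairs were listed. In the range from 100 to 200 kb FOXA1 tumour had 1.20 (0.952 to 1.49) and the others had 1.63, 1.58 and 1.73. Above 500 kb the ratios returned towards 1, at 1.06, 1.28, 1.14 and 1.08 up to 1000 kb. From 1000 to 2000 kb FOXA1 liver mets listed 12 loops against 12.7 expected and FOXA1 tumour 1 against 8.84, while HNF4G liver mets listed 3 against 5.88 and HNF4G tumour 11 against 6.42.

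**Figure D5:**
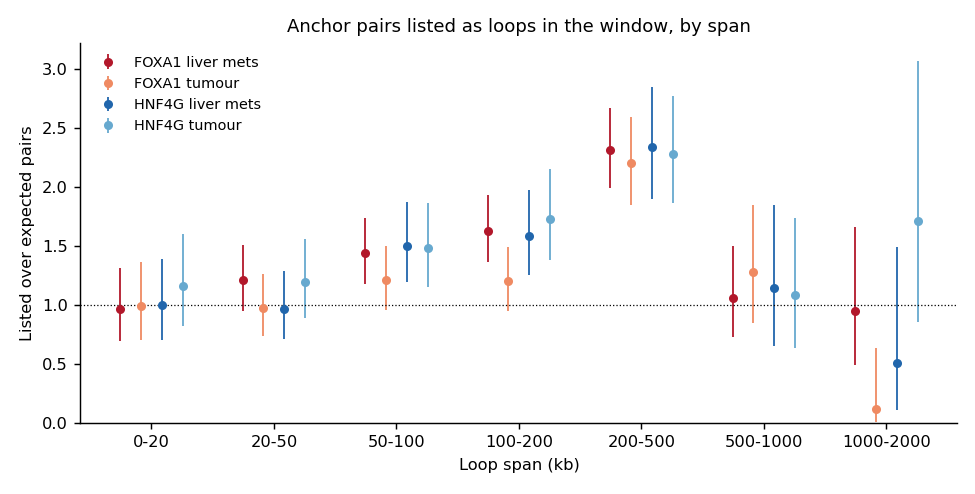
Listed over expected anchor pairs in the window (vertical axis) by loop span (horizontal axis, kb), 1 point per list with its exact Poisson 95% interval, and a dotted line at equality. The points rise to between 2.20 and 2.34 at 200 to 500 kb in the 4 lists and lie near 1 below 20 kb.

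The lists shared more of the window's loops than of the rest. Of the 582 FOXA1 liver mets loops, 272 (46.7%, Wilson 95% interval 42.7 to 50.8) were also in FOXA1 tumour, which is 64.2% of the 424 there. HNF4G liver mets shared 232, which is 39.9% of the 582 and 64.8% of its own 358. HNF4G tumour shared 239, 41.1% of the 582 and 64.1% of its own 373. Outside the window and at the same spans, 36.0%, 29.0% and 27.4% of FOXA1 liver mets loops were shared with these lists. The same lists also held more of the window's anchor pairs than expected from span, with ratios of 1.31, 1.44 and 1.56. The window was selected for its number of loops, and the part of these ratios in the sharing was not tested. All 4 lists held 107 of the 916 loops (11.7%), against 5.26% of the distinct loops outside. A single list held 446 (48.7%, against 65.7% outside), and FOXA1 liver mets alone held 180 (19.7%, against 24.4% outside). Of the 107 loops in all 4 lists, 46 had their highest value in FOXA1 liver mets (43.0%, Wilson 95% interval 34 to 52.5), against 29.8% of the 13168 such loops of the genome. HNF4G tumour led in 23, HNF4G liver mets in 17 and FOXA1 tumour in 14, and 7 were tied. The median values of the 107 were 2.48 in FOXA1 liver mets, 1.73 in FOXA1 tumour, 1.53 in HNF4G liver mets and 1.68 in HNF4G tumour. Outside the window the medians of such loops were lower, at 0.703, 0.665, 0.703 and 0.532 in the same order. The 107 loops share anchors, and the window was selected on its FOXA1 loops. Nothing further is therefore read from the lead of FOXA1 liver mets.

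Most loops of the window joined anchors without a transcript start. Anchors with an annotated start inside them or up to 2 kb away counted as promoter anchors, which held for 11 of the 53 anchors (20.8%) and for 45.2% of the 30542 anchors of the series. Loops with no promoter anchor made up 65.8% of the window's loops in FOXA1 liver mets (Wilson 95% interval 61.9 to 69.5), 61.3% in FOXA1 tumour, 63.7% in HNF4G liver mets and 62.2% in HNF4G tumour. In the rest of the lists they made up 28.8%, 27.6%, 26.4% and 23.7%. Loops between 2 promoter anchors made up 4.64%, 4.48%, 5.03% and 4.29% in the window, against 26.8%, 28.1%, 29.5% and 32.1% elsewhere. The window was thus poor in promoter anchors and in loops between them in each list.

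The other protein-coding genes of the window had fewer promoter loops than Irf2bp2. Rbm34 had 24 in FOXA1 liver mets, 17 in FOXA1 tumour, 15 in HNF4G liver mets and 15 in HNF4G tumour. Tomm20 had 17, 15, 7 and 20, and thus more loops in HNF4G tumour than in FOXA1 liver mets. The start of Tomm20 shares its anchor with that of the small nucleolar RNA Gm26397, so their loops cannot be told apart. Tarbp1, which codes for an RNA methyltransferase, had 19, 10, 12 and 12 loops. Coa6, a factor in the assembly of cytochrome c oxidase, had 4, 5, 1 and 1 loops, and none of them went to Irf2bp2. Slc35f3, a member of a family of solute carriers, had no promoter anchor and so no value. Few of these loops had a value of 4 or more, with 0, 0, 1 and 2 loops at Coa6, Tarbp1, Rbm34 and Tomm20 in FOXA1 liver mets. Most of the high values of the window were thus found at the Irf2bp2 promoter and at anchors outside protein-coding starts. Only 11 of the window's 53 anchors were promoter anchors of any kind.

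Genes related to Irf2bp2, by family or as described partners, were read from the same lists. Its paralogs Irf2bp1 and Irf2bpl had 23, 19, 12 and 20 and 16, 11, 10 and 10 promoter loops in FOXA1 liver mets, FOXA1 tumour, HNF4G liver mets and HNF4G tumour. Irf2 had 26, 21, 10 and 5 loops and Irf1 had 7, 8, 5 and 4. Vgll4, a cofactor of TEAD proteins, had 89, 61, 50 and 45 loops over 4 promoter anchors, and Tead1 had 47, 44, 24 and 22 over 4. Nfatc2, which codes for NFAT1, had 20, 9, 6 and 9, and Klf2 had 8, 4, 6 and 6. Cbfa2t3 had no promoter anchor. Loops of value 4 or more numbered at most 4 at a gene, with 4 at Vgll4 and 3 at Irf2 in FOXA1 liver mets. Over the listed genes together they were 9 of 236 loops (3.81%), 3 of 177 (1.69%), 1 of 123 (0.813%) and 2 of 121 (1.65%), against 2.58%, 1.75%, 1.78% and 1.84% of the whole lists. Of the 8 genes with loops, 7 had more in FOXA1 liver mets than in FOXA1 tumour, as did 57.0% of the 10786 protein-coding genes.

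The protein-coding genes outside the window with loop numbers most like those of Irf2bp2 were Por, Actg1, Rcor2, 1700001C19Rik and Parp10. Likeness was the Euclidean distance of log2(number + 1) over the 4 lists, and it ran from 0.136 for Por to 0.164 for Parp10. Por, for example, had 44, 39, 26 and 33 loops, and Actg1, the gene of a cytoplasmic actin, 43, 39, 29 and 38. In loops of value 4 or more these genes were not alike, since Por had 0 in each list and Actg1 had 2, 1, 1 and 4, against 14, 11, 3 and 11 at Irf2bp2.

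Forkhead and HNF4 words were counted in all anchors, on both strands. The words TGTTTAC or TGTTTGC were found in 40 of the 53 anchors of the window (75.5%) and in 62.5% of the 30489 other anchors, at 0.457 and 0.407 matches per kb. The HNF4 words CAAAGTCC or CAAAGGTC were found in 16 of 53 (30.2%) and in 22.6% of the others, at 0.131 and 0.0986 per kb. Anchors of the window without a start had 0.464 forkhead matches per kb, the same as the 0.464 of other anchors without a start, and 0.140 HNF4 matches per kb against 0.102. The window's 53 anchors were thus near the series for forkhead words per kb once starts were set aside, and the HNF4 figures rest on 23 matches in all. Of the 20 Irf2bp2 partners in all 4 lists, 18 held a forkhead word and 7 an HNF4 word, and of the 33 other partners 22 and 11 did. The partners in all 4 lists were wider, with medians of 3600 against 2341 bp, and had 0.511 against 0.397 forkhead matches per kb.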

How the data were processed

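Hi-ChIP loops of FOXA1 and HNF4G were taken from 4 deposited lists, 1 per group, each joining the 2 replicates of a KPC tumour or liver mets line. The members of the window, the gene lists and the comparisons were chosen with earlier results of these data known. The authors ran HiC-Pro (3.1.0, per the labels) on mm10 with DpnII fragments and removal of duplicates, and then hichipper. How replicates were joined, where anchors came from and the minimum of read pairs are not given in the sources used here. Each loop in the deposited files has an unnamed number, the value, which was read as the −log10 of an adjusted p made by the authors' loop caller, given that many loops tie and none exceeds 20. In the window 15.5% to 23.9% of loops carried a tied value, so the same value need not mean the same evidence in different lists. The deposited score only restates the value, in steps of 10, and was not used.

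Loops were counted, matched by identical anchors and annotated with GENCODE M21 and GRCm38 in Python 3.11.15 with SciPy 1.17.1. Intervals were exact Poisson for counts, exact (Clopper-Pearson) for ratios, Wilson for shares and binomial for medians, all at 95%. Loops that share an anchor were counted as independent. No test was run, as each group had 1 list. Named were partners of the promoter anchor in 3 or 4 lists, in FOXA1 liver mets only or among the 3 highest of a list, the 5 anchors with most loops, protein-coding genes of the window, top-value loops, the 5 nearest genes and a list of related genes. Of the partners in 3 lists, those with the highest values were given. Alternatives were minimum values, other placements of loops and window, promoter distances, span bins, list sizes and wider anchors. Chromosome sequence and promoters were from RefSeq (GRCm38.p6).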

Additional observations from a re-analysis of the deposited data

Results flagged for a closer look

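The liver mets to tumour ratio went opposite ways for the 2 antibodies in 5 counts, and with 1 list per group the difference between the antibodies was not tested. For the loops of the window the ratio was 1.37 for FOXA1 and 0.960 for HNF4G (exact 95% interval 0.828 to 1.11). For loops of value 2 or more it was 1.89 and 0.704, and for 4 or more 1.97 and 0.553. At the value of 20 it was 3.83 (1.52 to 11.5) and 0.286 (0.0290 to 1.50, from 2 and 7 loops). At the Irf2bp2 promoter it was 1.15 and 0.800, with both intervals including 1. In whole lists the ratio was 1.21 for FOXA1 and 1.02 for HNF4G, and for loops of value 2 or more 1.44 and 1.01. For loops of value 4 or more it was 1.78 and 0.987, and at the value of 20 it was 2.88 and 0.685. The opposite directions at 4 or more and at 20 were thus found over the whole lists as well, though 0.987 is close to 1.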

How the results depend on the processing

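No paired analysis was possible because the 2 replicates of each group are joined in 1 loop list, and for the same reason no replicate could be left out. The ratios of FOXA1 liver mets to FOXA1 tumour, HNF4G liver mets and HNF4G tumour, 1.37, 1.63 and 1.56, were 1.89, 2.75 and 1.94 at a value of 2 or more and 1.97, 3.67 and 2.03 at 4 or more. Divided by list size they were 1.14, 1.01 and 0.948, the last below 1, with an interval (0.831 to 1.08) that includes 1. With the 5587 loops of highest value from each list (5590 with ties in FOXA1 liver mets), the number at a value of 2 or more in the shortest list, the ratio to HNF4G tumour was 1.11. With the window moved 0.5 Mb to lower coordinates, which left 80 FOXA1 liver mets loops, the ratio to FOXA1 tumour was 1.08. The other 13 ratios stayed inside the interval of the main value. Among them, the ratio to FOXA1 tumour with equal numbers of loops was 1.25 (0.907 to 1.73). The ratio to HNF4G tumour with the window moved to lower coordinates was 1.38 (0.971 to 1.97), and both of these intervals include 1. The median spans of 140, 138, 121 and 126 kb (FOXA1 liver mets, FOXA1 tumour, HNF4G liver mets, HNF4G tumour) were 208, 213, 185 and 181 kb at a value of 2 or more, 219, 185, 234 and 166 kb at 4 or more, 215, 233, 185 and 181 kb with equal numbers of loops and 818, 597, 449 and 597 kb with the window moved to lower coordinates, so the order of the lists by span depends on these choices. The other 12 medians stayed inside their intervals. Irf2bp2 promoter loops numbered 25, 19, 12 and 20 at a value of 2 or more and 14, 11, 3 and 11 at 4 or more, and promoter distances of 0 and 5 kb left them as they were. Next were the shares of FOXA1 liver mets loops also in FOXA1 tumour, HNF4G liver mets and HNF4G tumour. With the anchors of both lists widened by 5 kb they were 82.5%, 77.1% and 78.0%. At a value of 2 or more they were 34.4%, 22.9% and 38.2%, so the highest share moved from FOXA1 tumour to HNF4G tumour. All 12 alternatives for the listed over expected ratio stayed inside its intervals. Apart from list size, filters and window place, which change the loops counted by their construction, the cause of these shifts was not tested. Read depth is unknown, and it limits every comparison between lists.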
